A study of Mus musculus with 6 samples.

Results

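The integrins, collagens, laminins, matrix metalloproteinases (MMPs) and tissue inhibitors of metalloproteinases (TIMPs) of B16F10 cells were compared after SAS and vehicle. B16F10 is an established pigmented melanoma cell line of the C57BL/6 mouse, grown here as a single cell type in culture. The cells of the SAS group were given a compound labelled SAS, whose full name the labels leave out, for 24 h at 500 of a unit that the labels write μm. The vehicle group received 0.05% DMSO. Each group held 3 libraries of total RNA, and the title of the study names blocking of the cystine transporter xCT. The table names the SAS columns 24 h and the vehicle columns 0 h, but both groups were incubated for 24 h according to the protocol. If 0 h means cells collected beforehand, a day of culture and the compound cannot be told apart. Members were all genes whose symbols name an integrin alpha or beta chain, a collagen chain, a laminin chain, an MMP or a TIMP: 86 of the 16315 genes in the table. They comprised 15 integrin alpha and 7 integrin beta chains, 38 collagen chains, 9 laminin chains, 13 MMPs and 4 TIMPs. The kinetochore gene Itgb3bp, whose symbol begins like that of an integrin but which is not an integrin chain, was left out. Another 23 genes of the mouse RefSeq annotation carry such symbols but have no row in the table and could not be analysed. Col5a2, Lama1, Lamb3, Itgb6, Mmp3 and Mmp13 are among them, so statements on each family cover only the members with a row.

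Integrins are receptors made of an alpha and a beta chain that bind matrix proteins outside the cell and link them to actin inside it. Laminins and type IV collagen form sheet-like basement membranes, whereas fibrillar collagens form the rope-like fibres of connective tissue. MMPs cut these proteins, and TIMPs bind MMPs and block them. Melanoma cells that leave the epidermis meet all of these proteins, and integrin beta3 with its partner alpha v is known as a marker of the invasive growth phase of human melanoma.

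The values are FPKM (fragments per kilobase of transcript, scaled also to the mapped fragments of the library), so levels can be compared between genes per length, and the number of fragments behind each value is unknown. Library sums of FPKM ran between 590238 and 617275. All 8 melanocyte markers of a chosen list stood at or above 1 FPKM in every library. They summed to 8834 to 10732 FPKM in SAS and 7464 to 8411 FPKM in vehicle. Of the 8, 6 were called higher in SAS (75%, against 18.9% of all genes tested). Tyrp1 and Mlana were not called, and Mlana averaged 2073 FPKM in SAS and 2204 FPKM in vehicle. Markers of other cell types were low. The 4 leukocyte markers analysed of 6 summed to 4.72 to 4.92 FPKM in SAS and 2.47 to 3.02 FPKM in vehicle, and Cd68 and Lyz2 were called higher. Lyz2, at 0.86 FPKM in SAS and 0.47 FPKM in vehicle on average, passed the filter on low values only through SAS. The 3 fibroblast markers of 5 summed to 1.69 to 2.14 FPKM in SAS and 2.16 to 2.70 FPKM in vehicle, mostly from Pdgfrb. The 3 endothelial markers of 4 summed to at most 0.05 FPKM in either group. The 3 keratinocyte or epithelial markers of 4 summed to 0.14 to 0.21 FPKM in SAS and 0.08 to 0.09 FPKM in vehicle, and Krt5 was listed at 0 in all 6 libraries. The part of such markers in the results was not tested.

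SAS-treated cells held about 3 times as much mRNA of the integrin chain Itgb3 and of the collagen chain Col11a2 as vehicle cells, more Itga5 and Itga9, and less of the MMP inhibitor Timp2. Of the 5 laminin chains tested, 0 were called, though Lamc1 was called lower in some alternative settings. Of the 86 members, 37 had a mean of at least 0.5 FPKM over the 6 libraries and entered the test (limma on log2(FPKM + 1), Benjamini-Hochberg adjustment over all 10615 genes tested, threshold 0.05). At this threshold 10 members were higher and 10 were lower in SAS, or 54.1% of those tested, against 37.4% of all genes tested (18.9% higher and 18.5% lower). The median log2 fold change was -0.0088 over the tested members and -0.0138 over all genes tested, and the median absolute log2 fold changes were 0.212 and 0.15. Groups did not overlap in 12 higher and 14 lower members, 70.3% of those tested, against 49.4% of all genes tested. Without SAS replicate 1 or without Vehicle replicate 1, 6 members in place of 10 were called lower. Of the 20 called members, 16 kept their call in every alternative setting in which they were tested; the others were Itga6, Mmp14, Mmp15 and Timp1, and their values are given with each gene. Timp4 passed the filter on low values through SAS and Col1a2 and Col27a1 through vehicle, with the other group below 0.5 FPKM, so these 3 had to differ to be tested at all. In a bulk sample, fewer cells with a transcript and less transcript per cell cannot be told apart. Nothing in the labels says that replicates came from separate cultures, so the spread behind the p-values may be technical.

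**Figure D1:**
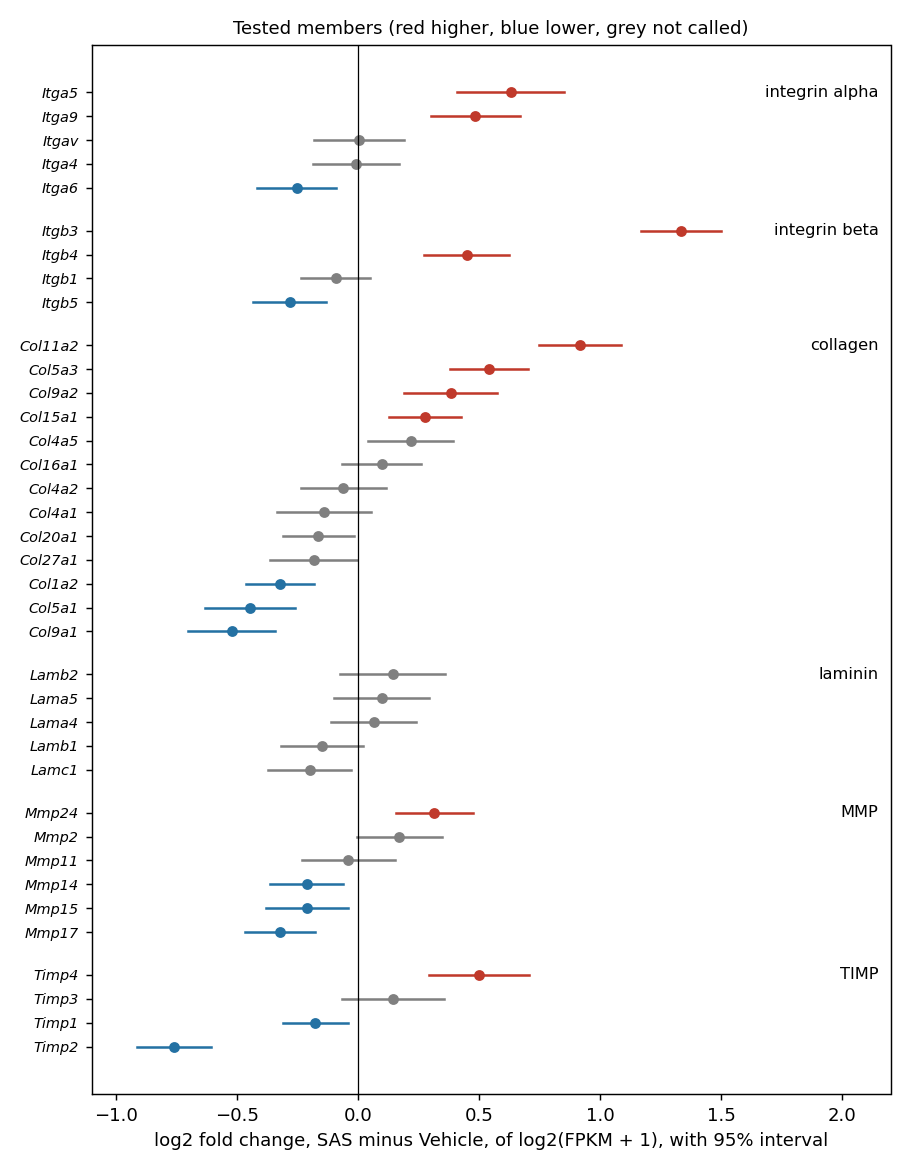
Difference between SAS and vehicle of log2(FPKM + 1) for the 37 tested members, grouped by family, with 95% intervals from limma (3 libraries per group). Red members were called higher (10), blue members lower (10) and grey members were not called (17); Itgb3 has the highest log2 fold change (1.33) and Timp2 the lowest (-0.76).

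Promoter sequence was available for 62 members, among them 16 of the 20 called, as windows of 300 bases around annotated starts from RefSeq (GRCm38.p6). The windows of 4 members that changed are shown because they hold letters searched for: Timp2, which fell, and Timp4, Itga9 and Col11a2, which rose. Capitals mark every match to TGACTCA (the AP-1 site), TGACNNNGC (the core of the antioxidant response element bound by NRF2), CATGTG and CACGTG (E-boxes of the kind bound by MITF), searched on both strands.
Timp2 promoter window, chr11:118355362-118355661, minus strand: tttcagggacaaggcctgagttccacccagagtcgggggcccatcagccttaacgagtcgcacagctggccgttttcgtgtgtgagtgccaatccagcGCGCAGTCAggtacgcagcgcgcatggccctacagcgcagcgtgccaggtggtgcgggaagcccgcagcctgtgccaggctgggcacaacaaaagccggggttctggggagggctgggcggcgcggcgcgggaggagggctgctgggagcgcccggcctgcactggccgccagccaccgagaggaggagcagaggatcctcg
Timp4 promoter window, chr6:115252156-115252455, minus strand: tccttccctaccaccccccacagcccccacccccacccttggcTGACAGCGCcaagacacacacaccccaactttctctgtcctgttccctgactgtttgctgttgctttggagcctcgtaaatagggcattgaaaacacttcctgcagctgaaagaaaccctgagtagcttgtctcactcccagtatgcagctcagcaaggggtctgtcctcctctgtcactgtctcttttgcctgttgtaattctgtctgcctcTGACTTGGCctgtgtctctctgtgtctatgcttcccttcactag
Itga9 promoter window, chr9:118711442-118711741, plus strand: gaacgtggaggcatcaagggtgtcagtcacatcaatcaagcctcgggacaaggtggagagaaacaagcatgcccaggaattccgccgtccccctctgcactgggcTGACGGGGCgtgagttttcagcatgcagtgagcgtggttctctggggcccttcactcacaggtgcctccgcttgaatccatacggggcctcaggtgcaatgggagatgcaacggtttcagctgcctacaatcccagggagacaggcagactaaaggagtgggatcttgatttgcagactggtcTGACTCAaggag
Col11a2 promoter window, chr17:34038888-34039187, plus strand: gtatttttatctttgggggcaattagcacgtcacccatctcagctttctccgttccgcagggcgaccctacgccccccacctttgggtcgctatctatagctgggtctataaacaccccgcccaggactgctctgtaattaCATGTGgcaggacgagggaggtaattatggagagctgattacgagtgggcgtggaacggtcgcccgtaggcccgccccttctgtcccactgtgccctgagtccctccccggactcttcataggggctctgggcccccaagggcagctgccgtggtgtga
The Timp2 window held 1 antioxidant element core, on the opposite strand, with its first base at -152 from the start, and the Timp4 window held 2, at -207 and 7. The Itga9 window held 1 core at -145 and the AP-1 site at 39, and the Col11a2 window held CATGTG at -109. These motifs did not overlap each other. The antioxidant element core stood in 4 of the 8 higher members with a window (Col9a2, Itga9, Mmp24 and Timp4), in 2 of the 8 lower ones (Mmp15 and Timp2) and in 14% of all genes with a window. Of the 30 tested members with a window 8 held it, among them Itgb1 and Col4a2, which were not called. Timp4 counts among the higher members only through its SAS values, which carried it past the filter. The AP-1 site stood in 1 higher and 0 lower members and in 5.9% of all genes, CATGTG in 1 higher and 0 lower members and in 15.9% of all genes, and CACGTG in 0 of the 16 and in 8.1% of all genes. A match describes the letters of the window and is not evidence of binding.

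The integrin beta chains shifted in opposite directions. Itgb3 (NCBI Gene 16416), the beta chain of the vitronectin receptor alpha v beta3, had 8.57, 9.63 and 10.21 FPKM in SAS, against 3.12, 3.06 and 3.25 FPKM in vehicle. Every SAS library stood far above every vehicle library, and the ratio of means was 3.01 (9.47 ± 0.832 FPKM in SAS and 3.14 ± 0.0971 FPKM in vehicle, SD, n = 3 each; log2 fold change 1.33, SE 0.08, limma adjusted p = 1.12e-06). Itgb4, the partner of alpha 6 in hemidesmosomes, had 1.45, 1.64 and 1.98 FPKM in SAS, against 0.93, 1.04 and 0.92 FPKM in vehicle, and rose 1.75-fold in the ratio of means (limma adjusted p = 0.00139). In the GENCODE M21 annotation 7.7% of the Itgb4 exon bases overlap B230344G16Rik on the opposite strand, and 5.9% of those of Itgav overlap Gm13684. Itgb5, another partner of alpha v, fell: it had 17.53, 19.27 and 20.39 FPKM in SAS, against 22.37, 24.36 and 23.39 FPKM in vehicle (log2 fold change -0.28, SE 0.07 and limma adjusted p = 0.00767). Its groups did not overlap, but the difference was much smaller than that of Itgb3. Itgb1, the common beta chain and the most abundant integrin chain measured, had 37.68, 36.07 and 42.43 FPKM in SAS, against 41.32, 41.25 and 41.16 FPKM in vehicle, with overlapping groups (log2 fold change -0.09, 95% interval -0.23 to 0.05, limma adjusted p = 0.286).

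Among the alpha chains, Itga5 and Itga9 rose and Itga6 fell. Itga5 (NCBI Gene 16402), which pairs with beta1 as the classical fibronectin receptor, had 20.19, 20.35 and 27.1 FPKM in SAS, against 13.74, 13.5 and 14.98 FPKM in vehicle (log2 fold change 0.63, SE 0.10, limma adjusted p = 0.000717). SAS replicate 3 was the highest, and the other two SAS libraries still lay above all vehicle libraries. Itga9, which binds tenascin-C and osteopontin, had 5.16, 6.15 and 6.56 FPKM in SAS, against 4.04, 3.79 and 4.04 FPKM in vehicle (log2 fold change 0.48, SE 0.08, limma adjusted p = 0.0012), and is the gene whose window above holds both an AP-1 site and an antioxidant element core. Itga6, a laminin-binding chain, had 8.55, 9.76 and 9.45 FPKM in SAS, against 11.03, 12.07 and 10.56 FPKM in vehicle (log2 fold change -0.25, SE 0.07 and limma adjusted p = 0.02). The Itga6 call was lost without SAS replicate 1 (limma adjusted p = 0.0593), without Vehicle replicate 1 (limma adjusted p = 0.0538) and without Vehicle replicate 2 (limma adjusted p = 0.0853). Itgav, the partner of both beta3 and beta5, had 6.32, 7.72 and 7.58 FPKM in SAS, against 7.06, 7.71 and 6.71 FPKM in vehicle, and its log2 fold change of 0.01 had a 95% interval of -0.18 to 0.19 (limma adjusted p = 0.964). Itga4, the chain related to alpha 9, averaged 4.53 ± 0.155 FPKM in SAS and 4.58 ± 0.541 FPKM in vehicle (SD, n = 3 each; limma adjusted p = 0.943).

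**Figure D2:**
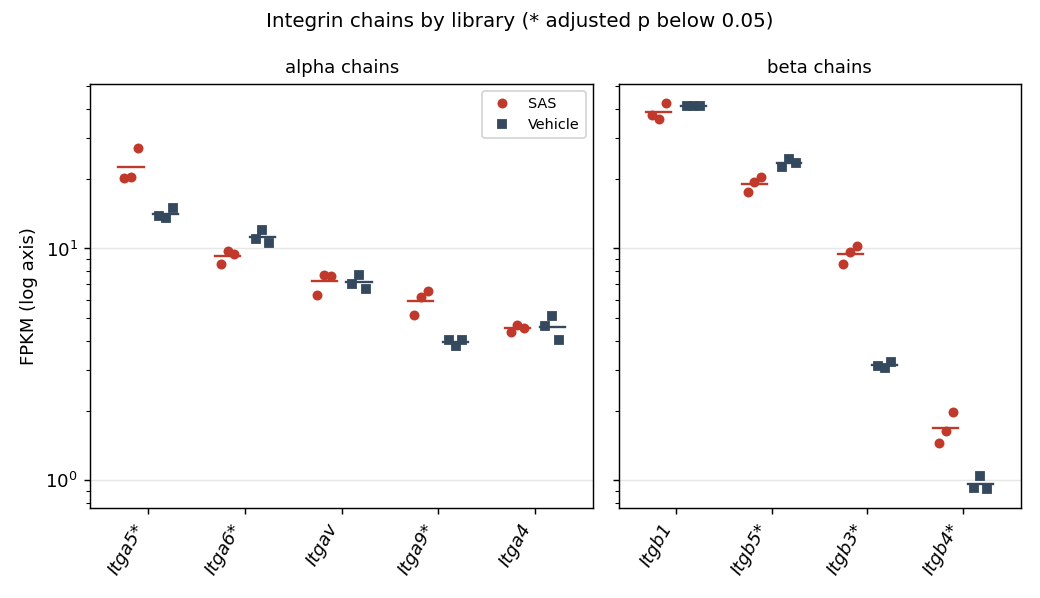
FPKM on a log axis of the 9 tested integrin chains in each library, SAS (red circles) beside vehicle (dark squares), with group means as short lines and called genes starred. The Itgb3 and Itga5 groups are separated upward in SAS and the Itgb5 groups downward, while Itgb1, Itgav and Itga4 overlap.

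Within each library the chains can be set against each other, which removes differences of scale between libraries and shows unequal change only. The ratio of Itgb3 to Itgb5 was 0.489, 0.5 and 0.501 in SAS, against 0.139, 0.126 and 0.139 in vehicle. Itgb3 made up 13.6 ± 0.669% of the summed integrin beta FPKM in SAS and 4.55 ± 0.17% in vehicle (SD, n = 3 each), while that sum averaged 69.4 ± 5.25 FPKM in SAS and 69.04 ± 0.99 FPKM in vehicle with overlapping groups. The ratio of Itgb3 to its partner Itgav averaged 1.32 ± 0.0603 in SAS and 0.441 ± 0.0437 in vehicle. The ratio of Itga5 to Itgb1 averaged 0.58 ± 0.0531 in SAS and 0.341 ± 0.0198 in vehicle. The summed integrin alpha FPKM were 46.1, 50.25 and 56.73 in SAS, against 41.93, 43.72 and 41.57 in vehicle. That sum averaged 51.0 FPKM in SAS and 42.4 FPKM in vehicle, and Itga5 alone 22.5 and 14.1 FPKM. The higher sum was thus mostly Itga5 and not a rise of the alpha chains in general. The ratio of the alpha sum to the beta sum, which was named beforehand, averaged 0.734 ± 0.0287 in SAS and 0.614 ± 0.0114 in vehicle. The groups did not overlap in these ratios or in the alpha sum. Each had an exact two-sided permutation p = 0.1, the smallest that 3 against 3 libraries allow. Itgb3 and Itgb5 had already separated in opposite directions, so the ratio of Itgb3 to Itgb5 had to separate and reach that p-value. Itgb3 and Itga5 had also separated by themselves, while Itgav and Itgb1 changed little. The ratios of Itgb3 to Itgav and of Itga5 to Itgb1, and the share of Itgb3, therefore repeat those differences and give no further support.

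**Figure D3:**
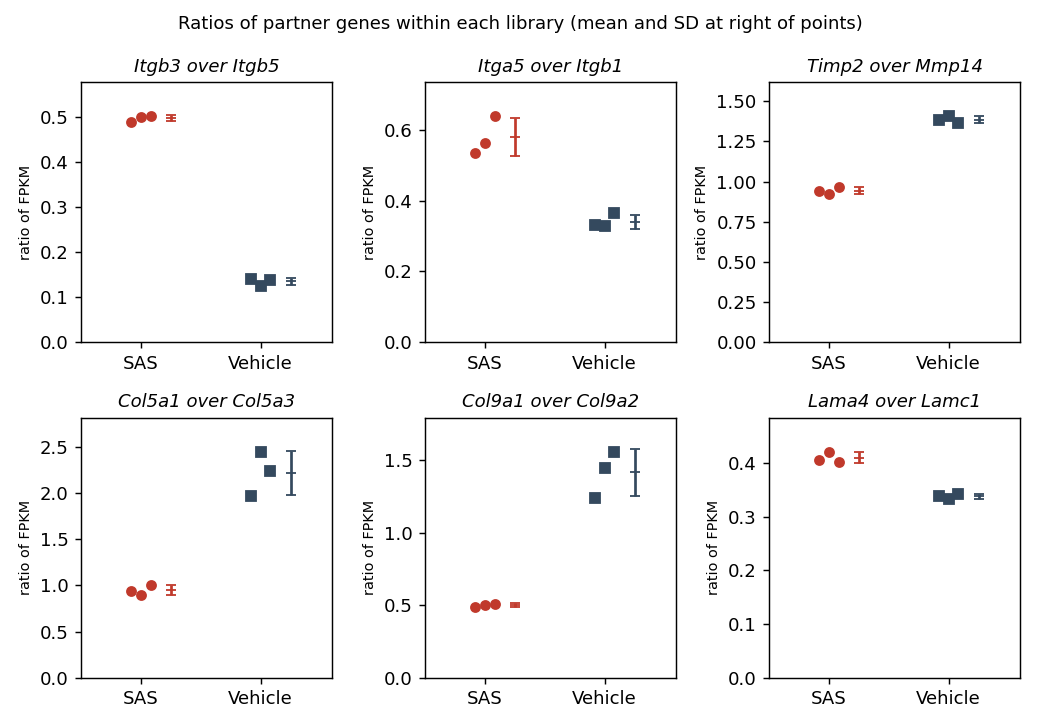
Ratio of FPKM between genes of the same library, with SAS libraries as red circles and vehicle libraries as dark squares, and the mean with SD (n = 3) to the right of each group. Itgb3 over Itgb5, Itga5 over Itgb1 and Lama4 over Lamc1 are higher in SAS, and Timp2 over Mmp14, Col5a1 over Col5a3 and Col9a1 over Col9a2 are lower.

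The remaining integrin chains, among them those of leukocytes, averaged below the filter on low values. No collagen-binding alpha chain reached the filter: Itga1, the highest, had 0.41, 0.42 and 0.4 FPKM in SAS, against 0.54, 0.47 and 0.46 FPKM in vehicle, and Itga2, Itga10 and Itga11 stayed at or below 0.21 FPKM. Itgb2, the leukocyte beta chain, had 0.4, 0.39 and 0.37 FPKM in SAS, against 0.16, 0.15 and 0.18 FPKM in vehicle. The leukocyte marker sum was likewise higher in SAS, led by Cd68 with 3.92, 3.99 and 3.99 FPKM in SAS, against 2.22, 2.02 and 2.54 FPKM in vehicle, while Csf1r did not exceed 0.01 FPKM. Their part in the Itgb2 values was not tested. With no filter on low values Itgb2 was called higher (limma adjusted p = 0.000713) and Itgb8 lower (limma adjusted p = 0.0363), with Itgb8 at 0 to 0.01 FPKM in SAS and 0.03 to 0.05 FPKM in vehicle. The other untested integrin chains (Itga2b, Itga3, Itga7, Itga8, Itgae, Itgal and Itgb7) lay at or below 0.26 FPKM.

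Collagen mRNA was modest in these cells, and the chains moved in both directions. Of 38 chains, 13 were tested, 4 rose, 3 fell and 6 were not called (53.8% called, against 37.4% of all genes). With no filter on low values 7 were called higher, among them Col18a1 (limma adjusted p = 0.000828), Col4a4 (limma adjusted p = 0.0321) and Col9a3 (limma adjusted p = 0.0463), none of which exceeded 0.58 FPKM. The summed collagen FPKM were 43.73, 46.26 and 49.34 in SAS, against 43.85, 45.25 and 44.94 in vehicle, with overlapping groups. Among fibrillar chains, Col11a2 (NCBI Gene 12815), a chain of the minor fibril component type XI, had 2.39, 2.08 and 2.61 FPKM in SAS, against 0.87, 0.76 and 0.7 FPKM in vehicle. The ratio of means was 3.04 (log2 fold change 0.92, SE 0.08, limma adjusted p = 1.1e-05), and its log2 fold change was 1.49 where 0.1 was added to FPKM before the log. Col5a3 and Col5a1 encode chains of type V collagen, which starts fibrils. Col5a3 had 4.27, 4.69 and 4.97 FPKM in SAS, against 2.99, 2.76 and 2.87 FPKM in vehicle (log2 fold change 0.54, SE 0.07, limma adjusted p = 0.000242). Col5a1 went the other way, with 4.02, 4.2 and 5.01 FPKM in SAS, against 5.89, 6.76 and 6.44 FPKM in vehicle (log2 fold change -0.45, SE 0.08 and limma adjusted p = 0.00201). The ratio of Col5a1 to Col5a3 was 0.942, 0.895 and 1.01 in SAS, against 1.97, 2.45 and 2.24 in vehicle (exact two-sided permutation p = 0.1). Both chains had separated in opposite directions, so their ratio had to separate and reach that p-value. Col1a2, a chain of the main fibre collagen type I, had 0.37, 0.43 and 0.39 FPKM in SAS, against 0.66, 0.82 and 0.76 FPKM in vehicle (limma adjusted p = 0.00252), whereas its partner Col1a1 had 0.36, 0.36 and 0.34 FPKM in SAS, against 0.27, 0.35 and 0.31 FPKM in vehicle, and was below the filter. Both type I chains were therefore under 1 FPKM in every library, and Col3a1 did not exceed 0.01 FPKM. Col27a1 averaged 0.453 ± 0.0289 FPKM in SAS and 0.657 ± 0.197 FPKM in vehicle (limma adjusted p = 0.102). Col1a2 and Col27a1 passed the filter only through vehicle, so both had to differ to be tested.

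The chains of type IX collagen, which decorates fibrils and is made as a trimer of 3 different chains, split. Col9a1 had 1.13, 1.17 and 0.86 FPKM in SAS, against 1.74, 1.93 and 2.17 FPKM in vehicle (log2 fold change -0.52, SE 0.08, limma adjusted p = 0.000684), and with a pseudocount of 0.1 the log2 fold change was -0.83. Col9a2 had 2.32, 2.33 and 1.68 FPKM in SAS, against 1.4, 1.33 and 1.39 FPKM in vehicle (log2 fold change 0.38, SE 0.09, limma adjusted p = 0.0059). Neither pair of groups overlapped, and the ratio of Col9a1 to Col9a2 averaged 0.5 ± 0.0125 in SAS and 1.42 ± 0.162 in vehicle (SD, n = 3 each). Because the chains moved in opposite directions without overlap, that ratio had to separate too. The third chain, Col9a3, had 0.58, 0.52 and 0.29 FPKM in SAS, against 0.25, 0.2 and 0.22 FPKM in vehicle, below the filter. Col15a1, a basement membrane collagen whose end fragment is known to inhibit vessel growth, had 3.3, 3.65 and 3.29 FPKM in SAS, against 2.63, 2.61 and 2.69 FPKM in vehicle (log2 fold change 0.28, SE 0.07 and limma adjusted p = 0.00855). Its relative Col18a1 had 0.29, 0.28 and 0.25 FPKM in SAS, against 0.1, 0.09 and 0.08 FPKM in vehicle, a level too low for the filter.

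The most abundant collagen chains were those of the basement membrane, Col4a1 and Col4a2, which lie head to head on mouse chromosome 8 and are transcribed apart from a shared promoter region. Col4a1 had 6.7, 7.56 and 8.77 FPKM in SAS, against 8.06, 8.83 and 8.67 FPKM in vehicle, and Col4a2 had 7.14, 7.73 and 8.96 FPKM in SAS, against 8.31, 8.4 and 8.16 FPKM in vehicle. Both overlapped between groups (limma adjusted p = 0.234 and 0.585), SAS replicate 1 was the lowest library for both, and their ratio was 0.938 to 0.979 in SAS and 0.97 to 1.06 in vehicle. Without SAS replicate 1 the log2 fold change of Col4a2 was 0.01 in place of -0.06. Col4a5, the X-linked type IV chain, had 2.97, 3.1 and 3.61 FPKM in SAS, against 2.57, 2.87 and 2.45 FPKM in vehicle, without overlap (log2 fold change 0.22, 95% interval 0.04 to 0.39, limma adjusted p = 0.0516). It was called higher without SAS replicate 1 (limma adjusted p = 0.0375) and without Vehicle replicate 2 (limma adjusted p = 0.0455). The same call was made without the intensity trend (limma adjusted p = 0.0422), with quantile normalization (limma adjusted p = 0.0381), with size factors (limma adjusted p = 0.0408) and with the correction for GC content and length (limma adjusted p = 0.0407). Col16a1 averaged 5.27 ± 0.152 FPKM in SAS and 4.87 ± 0.439 FPKM in vehicle (SD, n = 3 each; limma adjusted p = 0.33), and Col20a1 averaged 0.633 ± 0.104 FPKM in SAS and 0.827 ± 0.0416 FPKM in vehicle (limma adjusted p = 0.0783). Col20a1 was called lower without SAS replicate 2 (limma adjusted p = 0.0432), and Col27a1 without Vehicle replicate 3 (limma adjusted p = 0.0457), and both were called lower with the correction for GC content and length (limma adjusted p = 0.0203 and 0.038). The 25 untested chains reached at most 0.58 FPKM, and those of the beaded filament type VI, which connective tissue cells make in quantity, at most 0.13 FPKM.

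Laminin mRNA was made up mainly of Lamc1, Lamb2 and Lama4, which encode a gamma, a beta and an alpha chain, the 3 kinds that make up a laminin. Of the 5 tested chains limma called 0 higher and 0 lower, against 37.4% of all genes called, with 1 (Lamc1) at an unadjusted p below 0.05. Groups did not overlap in 40% of the 5, against 49.4% of all genes tested. With 5 chains such shares say little about the family. Lamc1 had 21.25, 24.7 and 25.28 FPKM in SAS, against 26.8, 29.69 and 25.67 FPKM in vehicle, so that the groups did not overlap but came close (log2 fold change -0.20, 95% interval -0.37 to -0.03, limma adjusted p = 0.0647). It was called lower with a replicate block (limma adjusted p = 0.0434), without SAS replicate 3 (limma adjusted p = 0.0479) and without Vehicle replicate 3 (limma adjusted p = 0.0486). Lamb2 had 13.33, 13.45 and 17.57 FPKM in SAS, against 12.21, 13.36 and 14.05 FPKM in vehicle, and Lama4 had 8.64, 10.41 and 10.19 FPKM in SAS, against 9.1, 9.9 and 8.77 FPKM in vehicle. Both overlapped between groups (limma adjusted p = 0.275 and 0.555). The ratio of Lama4 to Lamc1 was 0.407, 0.422 and 0.403 in SAS, against 0.34, 0.333 and 0.342 in vehicle, without overlap. That of Lamb2 to Lamc1 overlapped, with 0.6273, 0.5445 and 0.695 in SAS, against 0.4556, 0.45 and 0.5473 in vehicle. Lama5 averaged 2.14 ± 0.358 FPKM in SAS and 1.92 ± 0.174 FPKM in vehicle, and Lamb1 averaged 1.78 ± 0.125 FPKM in SAS and 2.09 ± 0.255 FPKM in vehicle (SD, n = 3 each; limma adjusted p = 0.41 and 0.153). The Lamb1 groups did not overlap. Among the untested chains, Lama2, Lama3 and Lamc3 did not exceed 0.03 FPKM.

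**Figure D4:**
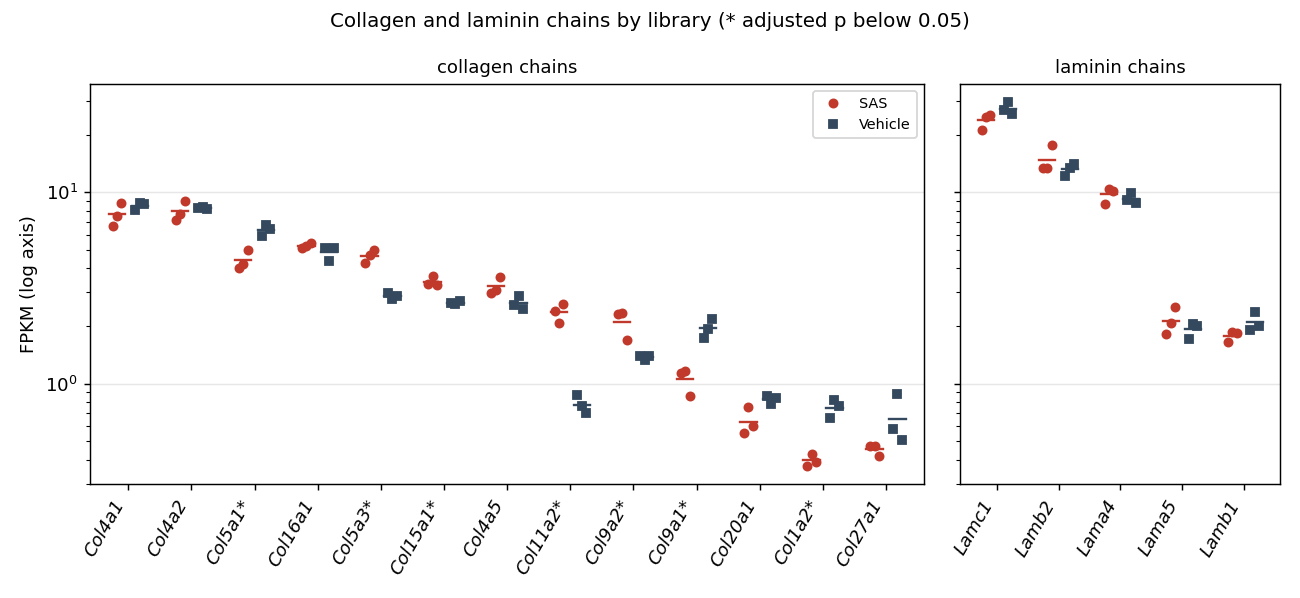
FPKM on a log axis of the 13 tested collagen and 5 tested laminin chains in each library, SAS (red circles) beside vehicle (dark squares), with group means as short lines and called genes starred. Col11a2, Col5a3 and Col9a2 lie higher in SAS and Col5a1, Col9a1 and Col1a2 lower, while no laminin chain is starred.

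Among the proteases, the membrane-type MMPs made up most of the summed MMP FPKM (70.62, 83.92 and 79.94 in SAS, against 87.32, 90.98 and 89.47 in vehicle). Mmp14, the membrane-bound collagenase that also activates the precursor of MMP2, had 62, 74.82 and 70.47 FPKM in SAS, against 77.63, 82.2 and 79.88 FPKM in vehicle. All SAS libraries lay below all vehicle libraries (log2 fold change -0.21, SE 0.07, limma adjusted p = 0.0326), and Mmp14 made up 84.1 ± 1.1% of the summed MMP FPKM in SAS and 86 ± 0.988% in vehicle (SD, n = 3 each), with overlap. The Mmp14 call was lost without SAS replicate 1 (limma adjusted p = 0.0878) and without Vehicle replicate 1, 2 or 3 (limma adjusted p = 0.058, 0.11 and 0.0638). Mmp15, its close relative, had 3.75, 4.36 and 4.39 FPKM in SAS, against 5.18, 4.64 and 5.12 FPKM in vehicle (log2 fold change -0.21, SE 0.08, limma adjusted p = 0.0497). That call stood at the threshold and was lost without SAS replicate 1, 2 or 3 (limma adjusted p = 0.15, 0.0588 and 0.0615) and without Vehicle replicate 1 or 3 (limma adjusted p = 0.161 and 0.114). Mmp17, which is held in the membrane by a lipid anchor, had 0.85, 0.78 and 0.88 FPKM in SAS, against 1.32, 1.38 and 1.19 FPKM in vehicle (log2 fold change -0.32, SE 0.07, limma adjusted p = 0.00296). With a pseudocount of 0.1 the Mmp17 log2 fold change was -0.575. Mmp24, best known from the nervous system, was the MMP that rose, with 4.02, 3.96 and 4.2 FPKM in SAS, against 3.19, 2.76 and 3.26 FPKM in vehicle (log2 fold change 0.32, SE 0.07, limma adjusted p = 0.00619). In that annotation 13.6% of its exon bases overlap BC029722 on the opposite strand. No source used here says that the counting used strand, so reads of these genes may not be told apart.

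The other MMPs were low. The gelatinase Mmp2 had 1.77, 1.86 and 1.98 FPKM in SAS, against 1.54, 1.32 and 1.81 FPKM in vehicle (log2 fold change 0.17, 95% interval -0.01 to 0.35, limma adjusted p = 0.116), and was called higher without Vehicle replicate 3 (limma adjusted p = 0.0379). Mmp11, which in tumours is typical of stromal cells, averaged 1.75 ± 0.21 FPKM in SAS and 1.83 ± 0.278 FPKM in vehicle (SD, n = 3 each; limma adjusted p = 0.746). The 7 untested MMPs (Mmp8, Mmp9, Mmp19, Mmp21, Mmp23, Mmp25 and Mmp28) reached at most 0.29 FPKM. The other gelatinase, Mmp9, stood at 0.03 to 0.05 FPKM in SAS and 0.01 to 0.03 FPKM in vehicle.

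Timp2 had the lowest log2 fold change of the tested members, although the ratios of means of the low chains Col1a2 and Col9a1 were lower still. It (NCBI Gene 21858) blocks MMPs and also bridges MMP14 and the precursor of MMP2. Timp2 had 58.24, 69.26 and 68.21 FPKM in SAS, against 107.61, 115.64 and 109.02 FPKM in vehicle. The vehicle mean was 1.7-fold the SAS mean (log2 fold change -0.76, SE 0.07, limma adjusted p = 2.22e-05), and the groups were separated. The ratio of Timp2 to Mmp14 was 0.939, 0.926 and 0.968 in SAS, against 1.39, 1.41 and 1.36 in vehicle, so that Timp2 was the lower of the pair in every SAS library and the higher in every vehicle library. Timp1, on the X chromosome, had 11.25, 11.06 and 11.19 FPKM in SAS, against 12.22, 12.78 and 13.25 FPKM in vehicle (log2 fold change -0.18, SE 0.06 and limma adjusted p = 0.0427). The Timp1 call was lost when any of the 6 libraries was left out (without SAS replicates 1, 2 and 3, limma adjusted p = 0.0626, 0.0923 and 0.0963, and without Vehicle replicates 1, 2 and 3, limma adjusted p = 0.0703, 0.101 and 0.115). Timp4, the least abundant TIMP, rose: it had 1.1, 0.81 and 0.63 FPKM in SAS, against 0.32, 0.19 and 0.39 FPKM in vehicle (log2 fold change 0.50, SE 0.09 and limma adjusted p = 0.00195). The groups did not overlap, with SAS replicate 3 closest to vehicle. Timp4 passed the filter on low values only through SAS, the group where it was high, so it had to differ to be tested. The ratio of means was 2.82, and the log2 fold change was 1.25 with a pseudocount of 0.1. Timp3, which is bound to the matrix, averaged 4.62 ± 0.693 FPKM in SAS and 4.06 ± 0.356 FPKM in vehicle (SD, n = 3 each; limma adjusted p = 0.257), and was called higher without SAS replicate 1 (limma adjusted p = 0.0424). The summed TIMP FPKM were 74.44, 86.33 and 84.83 in SAS, against 124.09, 133.07 and 126.44 in vehicle. Timp2 made up 79.6 ± 1.2% of that sum in SAS and 86.6 ± 0.351% in vehicle (SD, n = 3 each), so the sum mostly follows Timp2. The summed MMP FPKM were 74.4, 87.62 and 84.19 in SAS, against 90.72, 94.4 and 93.74 in vehicle. In the annotation Timp1 lies inside Syn1 and Timp4 inside Syn2, each on the strand opposite to its host. The exons of Timp1 and Syn1 did not overlap, and 1.5% of the Timp4 exon bases were shared with Syn2.

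**Figure D5:**
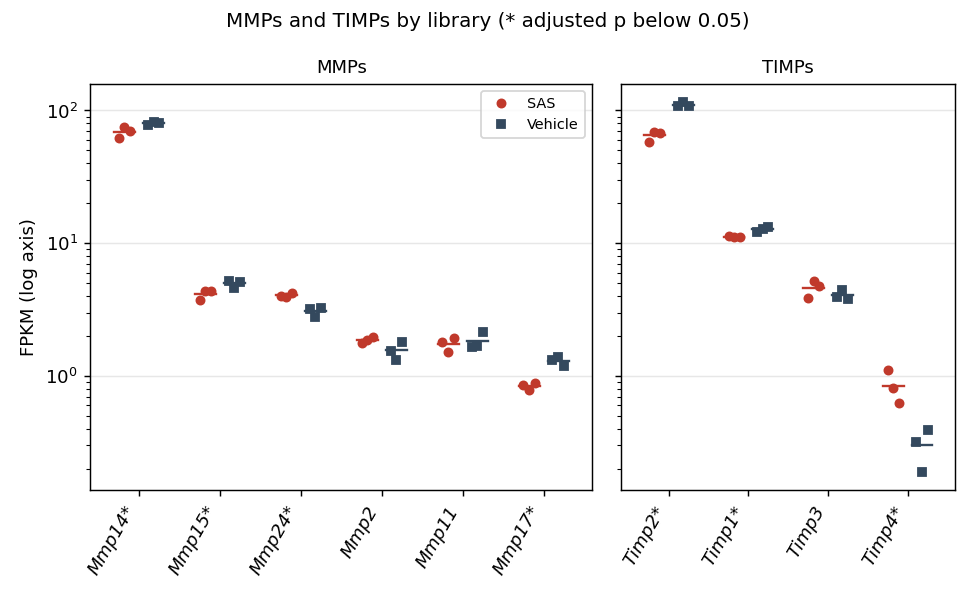
FPKM on a log axis of the 6 tested MMPs and the 4 TIMPs in each library, SAS (red circles) beside vehicle (dark squares), with group means as short lines and called genes starred. Timp2 lies lower and Timp4 and Mmp24 higher in SAS without overlap, and Mmp14 shows a small gap between groups.

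Other genes of adhesion and matrix, taken from lists of known roles, were read in the same test, and each gene named here was called. Of adaptors that link integrins to actin, 1 of 23 tested rose and 11 fell (52.2% in all, against 37.4% of all genes, of which 18.9% were higher and 18.5% lower). The adaptor Lims2 averaged 44.3 ± 6.23 FPKM in SAS and 22.1 ± 1.7 FPKM in vehicle (log2 fold change 0.96), whereas its paralog Lims1 averaged 4.18 ± 0.263 FPKM in SAS and 5.77 ± 0.336 FPKM in vehicle (log2 fold change -0.39; SD, n = 3 each). The LIM protein Zyx (zyxin) averaged 103 ± 4.62 FPKM in SAS and 140.1 ± 6.72 FPKM in vehicle, and Tln2, a talin that activates integrins, 8.41 ± 0.486 FPKM in SAS and 11.3 ± 0.537 FPKM in vehicle. The median log2 fold change of this list was -0.16. The count of adaptors that fell was 7 without SAS replicate 1 and 6 without SAS replicate 3, Vehicle replicate 1 or Vehicle replicate 2.

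Of enzymes that modify and crosslink collagen, 8 of 20 tested rose and 2 fell (50% in all, against 37.4% of all genes; median log2 fold change 0.19). P4ha1, a catalytic subunit of collagen prolyl 4-hydroxylase, averaged 22.7 ± 0.356 FPKM in SAS and 13.2 ± 0.758 FPKM in vehicle (log2 fold change 0.74), and the prolyl 3-hydroxylase family member P3h3 averaged 32.5 ± 3.23 FPKM in SAS and 23.3 ± 2.3 FPKM in vehicle (log2 fold change 0.46). Pcolce, which enhances procollagen processing, averaged 78.2 ± 11.8 FPKM in SAS and 109.5 ± 7.24 FPKM in vehicle (log2 fold change -0.49), and P3h2 averaged 3.46 ± 0.234 FPKM in SAS and 5.25 ± 0.42 FPKM in vehicle (log2 fold change -0.49). The count that rose was 3 without SAS replicate 3, Vehicle replicate 1 or Vehicle replicate 2.

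Of other matrix proteins, 6 of 14 tested rose and 3 fell (64.3% in all, against 37.4% of all genes; median log2 fold change 0.14). The secreted glycoprotein Ecm1 averaged 20.5 ± 1.77 FPKM in SAS and 7.04 ± 0.633 FPKM in vehicle (log2 fold change 1.42), Fbln5, an elastic fibre protein with an integrin-binding motif, 96.2 ± 12.8 FPKM in SAS and 57.9 ± 2.32 FPKM in vehicle, Emilin1 49.9 ± 5.53 FPKM in SAS and 33.1 ± 1.42 FPKM in vehicle, and the basement membrane linker Nid2 0.703 ± 0.153 FPKM in SAS and 0.343 ± 0.0351 FPKM in vehicle. Nid2 passed the filter only through SAS, the group where it was high, so it had to differ to be tested. The count of other matrix proteins that fell was 1 without SAS replicate 1 or Vehicle replicate 1. Of other proteases and their regulators, 3 of 15 tested rose and 3 fell (40% in all, against 37.4% of all genes; median log2 fold change 0.13), and 6 rose without SAS replicate 1. The aggrecan-cutting protease Adamts4 averaged 11.8 ± 1.22 FPKM in SAS and 6.56 ± 0.392 FPKM in vehicle, its relative Adamts1 16.8 ± 1.36 FPKM in SAS and 24.4 ± 1.22 FPKM in vehicle, Adam9 18.7 ± 1.98 FPKM in SAS and 26.05 ± 2.62 FPKM in vehicle, and Adam19 2.25 ± 0.205 FPKM in SAS and 3.25 ± 0.212 FPKM in vehicle. Of other receptors for laminin and collagen and their partners, 3 of 16 tested rose and 3 fell, or 37.5% in all, against 37.4% of all genes. The syndecan Sdc1 averaged 32.4 ± 3.17 FPKM in SAS and 49.8 ± 1.53 FPKM in vehicle, the laminin receptor Bcam 2.49 ± 0.313 FPKM in SAS and 3.88 ± 0.242 FPKM in vehicle, the hyaluronan receptor Cd44 63.4 ± 6.78 FPKM in SAS and 49.2 ± 2.46 FPKM in vehicle, and the adhesion molecule Mcam 85.9 ± 7.06 FPKM in SAS and 162.9 ± 13.3 FPKM in vehicle.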

How the data were processed

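RNA of 3 SAS and 3 vehicle libraries of B16F10 cells was sequenced on the BGISEQ-500 platform, as the labels state. FPKM values, so called per the file headers, were computed by the authors and deposited to 2 decimals, unpooled. Tools listed per the submitters' processing notes were FastQC, HISAT and Bowtie2. No source used here names the FPKM program, genome build, annotation, strand setting or depth. The 24 h columns were taken as SAS, the treatment labelled with that time, and the 0 h columns as vehicle by elimination. NCBI Gene identifiers were matched to symbols with RefSeq GRCm38.p6 (16206 of 16315, 99.3%).

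Genes averaging 0.5 FPKM or more were tested with limma 3.58.1 (R 4.3.3, intensity trend) on log2(FPKM + 1) with Benjamini-Hochberg adjustment, and the procedure was checked on simulated data. Fold changes on this scale understate those of low genes; ratios of means are of FPKM itself. FPKM are relative within a library, so abundant genes that rise pull the others down. Members, lists and tests were chosen with earlier results of these data known. The ratios of single integrin chains and of collagen chains were not among those named beforehand. Named are all called members, all members with a mean of at least 5 FPKM in either group, and up to 4 called genes per other list with the largest absolute log2 fold change; other members are given by values or ranges, and genes of the text chosen after seeing values are Itga1, Itgb2, Itgb8, Col1a1, Col3a1, Col9a3, Col18a1, Mmp9, and the tested members below both limits. Motif searches and ratios used Python 3.11.15, pandas 2.3.3, numpy 2.4.6 and scipy 1.17.1, and plots matplotlib 3.10.9. Alternatives were other pseudocounts, filters, scalings and variance models, a replicate block, each library left out, a reading of symbols by first letters and, added after the data were seen, a correction for GC content and length (GENCODE M21, 98% of tested genes). The values of 1 untested member are not reported here.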

Additional observations from a re-analysis of the deposited data

How the results depend on the processing

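Of the 20 called members, 16 kept direction and call in every alternative in which they were tested, among them Itgb3 (log2 fold change 1.28 to 1.56), Timp2 (-0.80 to -0.68), Col11a2 (0.86 to 1.49) and Itga5 (0.50 to 0.70). With a filter at a mean of 5 FPKM, 2 members were called higher and 6 lower, because fewer members were tested. Leaving out each library in turn gave 10 to 12 higher and 6 to 9 lower members. A replicate block gave 10 higher and 11 lower members. Same-numbered libraries deviated together only in part (correlations -0.0802, 0.145 and 0.234 across genes), so the numbers were not taken as pairs, and the block changed the call of Lamc1 among the named members. With no filter, 14 members were higher and 9 lower, and the calls of Mmp14 (limma adjusted p = 0.0749) and Mmp15 (0.103) were lost. Libraries rescaled to a common sum lost Mmp14 (0.0511), Mmp15 (0.0804) and Timp1 (0.0828), and size factors lost Mmp15 (0.0566) and Timp1 (0.0506). Quantile normalization called Lamc1 lower (0.0468), as did the GC content and length correction (0.0129). The small difference of Itgav turned to -0.0073 with quantile normalization and ranged between -0.0403 and 0.0859 over all alternatives. That of Col4a2 ranged between -0.14 and 0.00547, the last without SAS replicate 1; neither was called in any alternative. Reading symbols by first letters alone left 10 higher and 10 lower. Among the other lists, adaptors that fell numbered 7 with a common sum and 7 without the trend. Enzymes of collagen synthesis that rose numbered 4 with no filter and 5 with the GC content and length correction. Proteases that rose numbered 6 with a replicate block and 5 with quantile normalization or the GC content and length correction. The cause was not tested. Depth in fragments is unknown, so low members such as Timp4 and Col1a2 rest on a number of fragments that cannot be given.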
